A study of Mus musculus with 6 samples.

Results

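The genes described here are 9 that mark macrophages and other leukocytes: the complement genes C1qa, C1qb and C1qc, the receptor genes Csf1r, Adgre1 and Mrc1, the adapter genes Tyrobp and Fcer1g, and Ptprc, which encodes CD45. They were followed in RNA of separated mouse uterine epithelium as a check of its leukocyte content. Every probe set whose only gene symbol was one of these names was taken, which gave 14 probe sets of the 34945 with a single symbol, for 9 of 18193 genes. C1qb and Csf1r had 3 probe sets each, Ptprc had 2, and the other 6 genes had 1.

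Epithelium of pregnant mice was freed from uterine pieces with pancreatin and dispase, and its RNA was measured on 6 Affymetrix 3′ expression arrays, 2 in each of 3 groups. The first group was wild type (WT) on day 1 of pregnancy, the day on which the vaginal plug was found (arrays 302 and 303). The second was WT on day 4 (arrays 277 and 284). The third was Sox17GFP/+ on day 4, that is, mice with 1 Sox17GFP allele and 1 wild-type allele, called Sox17 heterozygous here (arrays 253 and 281). The labels give no other allele, no hormone treatment, no strain and no age, and the allele is not stated to be limited to a cell type. No sort for an epithelial surface marker is described. Nothing states that the samples came from separate animals, so p-values measure only the spread between these samples.

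Macrophages are phagocytes that live in most tissues. Their survival depends on CSF1 or IL34 acting through the receptor CSF1R, and many resident macrophages make the C1q that starts the classical complement pathway. In the mouse uterus macrophages are common in the stroma, below the epithelium, and their number and place change with ovarian hormones and in early pregnancy. Because epithelium is not regarded as a main source of these transcripts, their level in an epithelial preparation is often read as a measure of leukocytes carried over with it. In RNA from a mixed preparation, fewer cells of a type and less RNA per cell cannot be told apart.

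C1qb and C1qc lie next to each other on chromosome 4 in the order C1qb, C1qc, C1qa, with no other listed gene between them. Promoter windows from RefSeq (assembly GRCm38.p6) were used for 5 of the 9 genes: C1qb, C1qc, Fcer1g, Mrc1 and Ptprc. Windows on the chromosome that holds Csf1r were left out before this count, so any Csf1r window was not searched. Each window holds the 250 bases before the gene's annotated start, read 5′ to 3′ along the gene. They were searched on both strands for GAGGAA, written TTCCTC on the opposite strand, the core of the purine-rich element bound by PU.1 (Spi1), a transcription factor of myeloid cells. The letters were present in 4 of these 5 genes, Ptprc through 1 of its 2 windows, and in 23.3% of 32851 windows of all genes. The first count is per gene and the second per window, so the 2 are not on the same unit. Printed here, with those letters in capitals, are the windows of the genes among the 5 whose signal was higher on both WT day 4 arrays than on the other 4 arrays. The windows are chr4:136886201-136886450 for C1qb, chr4:136892915-136893164 for C1qc, chr1:138175306-138175555 for Ptprc (1 of its 2 listed starts) and chr1:171234350-171234599 for Fcer1g, each on the minus strand.
C1qb: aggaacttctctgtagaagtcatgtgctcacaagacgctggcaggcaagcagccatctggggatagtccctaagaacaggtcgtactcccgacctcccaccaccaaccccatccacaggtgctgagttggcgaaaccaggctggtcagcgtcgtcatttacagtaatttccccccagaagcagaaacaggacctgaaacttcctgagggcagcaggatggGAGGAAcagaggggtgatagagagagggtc
C1qc: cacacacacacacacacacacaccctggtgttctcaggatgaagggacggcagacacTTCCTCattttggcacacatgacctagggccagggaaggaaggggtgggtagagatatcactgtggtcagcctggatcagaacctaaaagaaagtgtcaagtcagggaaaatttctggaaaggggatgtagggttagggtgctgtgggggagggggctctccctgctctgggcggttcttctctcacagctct
Ptprc: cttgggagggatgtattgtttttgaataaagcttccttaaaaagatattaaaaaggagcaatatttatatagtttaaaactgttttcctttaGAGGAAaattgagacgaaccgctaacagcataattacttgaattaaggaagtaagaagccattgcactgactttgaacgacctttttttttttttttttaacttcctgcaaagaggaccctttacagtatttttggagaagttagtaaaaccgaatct
Fcer1g: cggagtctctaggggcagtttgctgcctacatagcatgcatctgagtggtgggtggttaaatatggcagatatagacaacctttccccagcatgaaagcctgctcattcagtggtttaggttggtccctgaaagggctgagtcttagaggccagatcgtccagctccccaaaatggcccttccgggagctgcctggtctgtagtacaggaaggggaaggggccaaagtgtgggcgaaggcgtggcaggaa
The letters lay 30 to 25 bases before the start of C1qb, 193 to 188 bases before that of C1qc, on the opposite strand, and 158 to 153 bases before that of Ptprc. They were not in the Fcer1g window, and a match is a description of the sequence, not a sign of binding.

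All 9 genes were dim against the epithelial genes of the same arrays. Signals of the 14 probe sets ran from 1.58 for a Ptprc probe set to 619 for a Csf1r probe set, on a linear scale on which every array has a mean of 500 after trimming 2% at each end. Of 8 epithelial genes measured, among them Epcam and the keratins, the list median lay between 16972 and 21073 on each array. Keratin 8 (Krt8), the brightest of them by its mean over the arrays, ran from 25455 on array 277 to 29696 on array 303. No detection calls were used, so it is not known which of the dim signals lie above background.

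One array differed from the others in its dim range, where the macrophage genes lie. The median signal of all probe sets was 138 on WT day 4 array 277, against 66.2 to 78.0 on the other 5. On array 277, 27.0% of probe sets had signals below 50, against 41.6% to 44.6% elsewhere. Both WT day 4 arrays are therefore also given singly throughout, and each gene also by its percentile among the 18193 genes of an array.

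**Figure D1:**
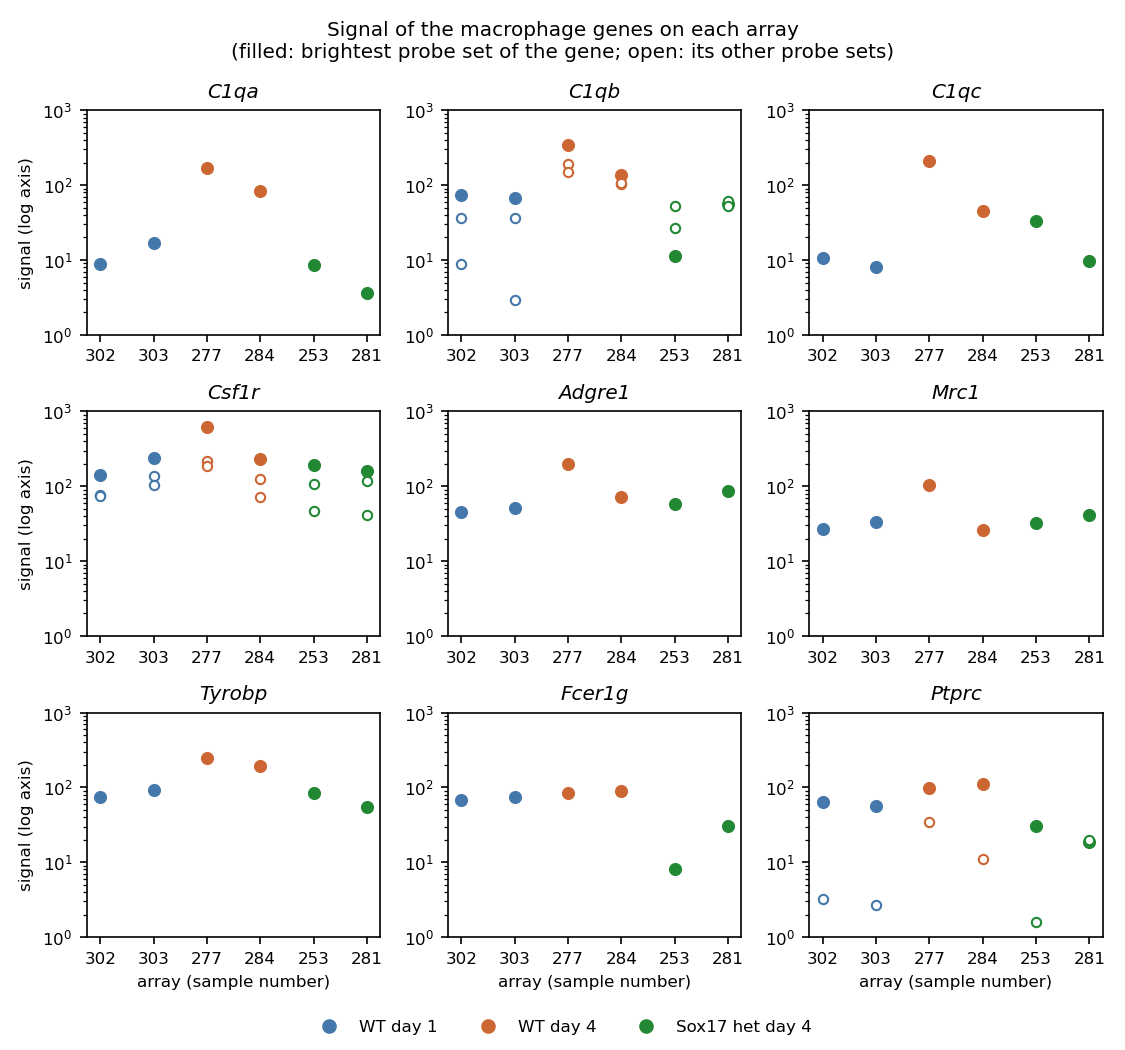
Signal of the macrophage genes on each of the 6 arrays, on a log axis, 1 panel per gene. Filled points are the brightest probe set of a gene and open points its other probe sets. C1qa, at 171 and 84.6 on the WT day 4 arrays, lies at 17.0 or below on the other 4 arrays.

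C1qa, C1qb and C1qc encode the 3 chains of C1q, the recognition part of the first complement component. C1qa had signals of 8.91 and 17.0 on the day 1 arrays 302 and 303, 171 and 84.6 on the WT day 4 arrays 277 and 284, and 8.61 and 3.68 on the heterozygous arrays 253 and 281. The WT day 4 arrays stood clear of the other 4, and the lower of them was still well above both day 1 arrays. C1qa rose from day 1 to day 4 in WT by 3.18 ± 0.59 on the log2 scale (SE, 9.09-fold; limma with Benjamini-Hochberg adjustment, adjusted p = 0.0396). This call was lost when any single array was left out, with adjusted p-values from 0.0543 without array 284 to 0.183 without array 302. Without array 277 the change was 2.68 (adjusted p = 0.105).

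In the heterozygous samples C1qa was -4.18 ± 0.59 on the log2 scale against WT day 4 (limma adjusted p = 0.169), which did not pass. Against WT day 1 the heterozygous value was -0.99 ± 0.59 (limma adjusted p = 0.393). C1qa was thus at or below the day 1 level on both heterozygous arrays, and these 2 comparisons share the heterozygous arrays.

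C1qc had signals of 10.5 and 8.17 on day 1, 208 and 45.0 on WT day 4, and 33.2 and 9.74 in the heterozygous samples. The WT day 4 pair lay above the other 4 arrays but differed widely within itself. From day 1 to day 4 the change was 3.25 ± 0.95 (limma adjusted p = 0.104) and the heterozygous change against WT day 4 was -2.35 ± 0.95 (limma adjusted p = 0.399). Neither passed, and against WT day 1 the heterozygous value was 0.90 ± 0.95 (limma adjusted p = 0.643). Without array 277 the first was 2.16 and the second -1.26, and without array 281 the second was -1.52.

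C1qb was measured by 3 probe sets. The brightest, 1417063_at, had 72.8 and 67.9 on day 1, 342 and 137 on WT day 4, and 11.4 and 56.2 in the heterozygous samples. Its day 4 change was 1.61 ± 0.88 (limma adjusted p = 0.307), its heterozygous change against WT day 4 was -3.04 ± 0.88 (limma adjusted p = 0.301), and against WT day 1 it was -1.42 ± 0.88 (limma adjusted p = 0.411). Without array 277 the first was 0.96, and without array 253 the second was -1.93. The WT day 4 arrays were again the 2 highest, and heterozygous array 253 was the lowest.

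The other 2 C1qb probe sets had tighter day 1 and day 4 pairs or a larger step. Probe set 1434366_x_at had 36.9 and 36.1 on day 1, 189.5 and 103 on WT day 4, and 52.0 and 60.7 in the heterozygous samples. Probe set 1437726_x_at had 8.96 and 2.93, then 149 and 106, and 26.4 and 52.7. Both rose on day 4 in the fit over every probe set, by 1.91 ± 0.36 (limma adjusted p = 0.0490) and 4.34 ± 0.61 (limma adjusted p = 0.0267). Each lost its call when the 4 WT arrays were fitted alone (adjusted p = 0.131 and 0.0750) and, for the second, when any single array was left out (0.0585 to 0.117). The first lost its call without any single array other than 284 (0.0628 to 0.213), and also after median centring (0.0589) and with an intensity trend (0.0650).

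For C1qb the probe sets differed in the order of the other groups. On 1434366_x_at and 1437726_x_at both heterozygous arrays lay above both day 1 arrays, with values of 0.61 ± 0.36 and 2.62 ± 0.61 against WT day 1 (limma adjusted p = 0.423 and 0.0900), while on 1417063_at both lay below (the mean over the probe sets was 0.60 against WT day 1). All 3 probe sets placed both WT day 4 arrays highest.

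Csf1r encodes the receptor for CSF1 and IL34. Its brightest probe set, 1419872_at, had 139 and 238 on day 1, 619 and 234 on WT day 4, and 194 and 158 in the heterozygous samples. Array 277 was far above the rest, while array 284 lay within the range of the day 1 arrays. For WT day 4 against day 1 the value was 1.06 ± 0.58 (limma adjusted p = 0.303), the heterozygous change against WT day 4 was -1.12 ± 0.58 (limma adjusted p = 0.459), and that against WT day 1 was -0.06 ± 0.58 (limma adjusted p = 0.969). The first was 0.36 without array 277 and 1.76 without array 284, and the second -0.42 and -1.82.

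The other Csf1r probe sets were also highest on array 277. Probe set 1423593_a_at had 77.3 and 138 on day 1, 215 and 126 on WT day 4, and 108 and 117 in the heterozygous samples. Probe set 1419873_s_at had 73.4 and 102, then 187 and 72.2, and 47.35 and 41.5. On the latter, array 284 was below both day 1 arrays, so that its change on day 4 of 0.42 ± 0.53 turned to -0.26 without array 277, and the heterozygous arrays were the 2 lowest.

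Adgre1 encodes F4/80, the classical surface antigen of mouse macrophages. Its signals were 44.7 and 51.1 on day 1, 199 and 72.9 on WT day 4, and 58.6 and 86.3 in the heterozygous samples. Both WT day 4 arrays were above both day 1 arrays, but heterozygous array 281 was above WT array 284. Adgre1 gave 1.32 ± 0.55 on WT day 4 against day 1 (limma adjusted p = 0.206), and the heterozygous change against WT day 4 was -0.75 ± 0.55 (limma adjusted p = 0.570), while that against WT day 1 was 0.56 ± 0.55 (limma adjusted p = 0.613). Without array 284, with array 277 as the only WT day 4 array, the first was 2.04, and without array 277 it was 0.60. With quantile normalization as well these were 1.25 and 0.74. The second was -0.03 without array 277, -1.47 without array 284 and -0.48 without array 253.

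Mrc1 encodes the mannose receptor CD206, carried by many resident macrophages. Its signals were 26.5 and 33.7 on day 1, 104.7 and 25.8 on WT day 4, and 32.4 and 41.1 in the heterozygous samples. Array 277 alone stood apart, and array 284 was the lowest of the 6. Mrc1 gave 0.78 ± 0.71 on WT day 4 against day 1 (limma adjusted p = 0.520), and the heterozygous change against WT day 4 was -0.51 ± 0.71 (limma adjusted p = 0.757), while that against WT day 1 was 0.28 ± 0.71 (limma adjusted p = 0.870). Without array 277 the first became -0.21 and the second 0.48, both turned in direction. Without array 284, with array 277 as the only WT day 4 array, the first was 1.77. With quantile normalization as well, the first was -0.12 without array 277 and 0.51 without array 284.

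Tyrobp encodes DAP12, an adapter that carries an ITAM, the activation motif through which TREM2 and related receptors signal. Its signals were 73.5 and 93.2 on day 1, 244 and 193 on WT day 4, and 83.3 and 54.5 in the heterozygous samples. The WT day 4 arrays were close to each other and at least 2 times as high as each of the other 4. The day 4 change was 1.38 ± 0.31 (limma adjusted p = 0.0619), the heterozygous change against WT day 4 was -1.67 ± 0.31 (limma adjusted p = 0.209), and that against WT day 1 was -0.29 ± 0.31 (limma adjusted p = 0.649). The day 4 change passed with a pseudocount of 32 (1.12, limma adjusted p = 0.0294), under which 3419 of all genes passed, against 2421 in the main fit. It also passed when genes with a mean signal under 100 were left out (1.38, limma adjusted p = 0.0125). There 4245 passed, out of the genes left and not of all genes. Tyrobp had signals under 100 on all 4 arrays outside WT day 4 and reached that minimum only through WT day 4. The pass with the signal minimum is therefore no support for a rise.

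Fcer1g encodes the common gamma chain of Fc receptors, another ITAM adapter, found in macrophages, mast cells, NK cells and other leukocytes. Its signals were 68.1 and 75.4 on day 1, 82.9 and 89.9 on WT day 4, and 8.06 and 30.2 in the heterozygous samples. The 4 WT arrays lay close together and both heterozygous arrays were below all of them. Fcer1g gave 0.27 ± 0.63 on WT day 4 against day 1 (limma adjusted p = 0.817; -0.31 after quantile normalization), and the heterozygous change against WT day 4 was -2.38 ± 0.63 (limma adjusted p = 0.278), while that against WT day 1 was -2.11 ± 0.63 (limma adjusted p = 0.125). Against WT day 4 it was -1.48 without array 253, -3.27 without array 281 and -1.58 after quantile normalization.

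Ptprc encodes the phosphatase CD45, present on all leukocytes and not on epithelial cells. Probe set 1422124_a_at had 62.9 and 57.0 on day 1, 98.0 and 112 on WT day 4, and 30.3 and 18.9 in the heterozygous samples. The 3 pairs did not overlap, with WT day 4 highest and the heterozygous arrays lowest. The day 4 change was 0.80 ± 0.30 (limma adjusted p = 0.166), the heterozygous change against WT day 4 was -2.08 ± 0.30 (limma adjusted p = 0.169), and that against WT day 1 was -1.29 ± 0.30 (limma adjusted p = 0.0719). After quantile normalization the first was 0.22 (limma adjusted p = 0.836) and the second -1.32 (limma adjusted p = 0.409). The second Ptprc probe set, 1440165_at, was dim, with 3.21 and 2.72, then 35.0 and 10.9, and 1.58 and 19.6, and its heterozygous arrays differed more from each other than from the other groups.

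From day 1 to day 4 in WT, 1 of the 9 genes passed at an adjusted p under 0.05, C1qa, against 13.3% of all genes tested in either direction and 7.58% higher. All 9 had a positive change, as had 62.9% of all genes. The median change of the 9 was 1.32, against 0.30 over all genes. At an unadjusted p under 0.05, 4 of 9 were higher (C1qa, C1qc, Tyrobp and Ptprc), against 17.8% of all genes. Both day 4 arrays exceeded both day 1 arrays for 7 of 9, against 35.4% of all genes. With every probe set tested on its own, 3 of 14 passed, against 9.19% of all probe sets.

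Between heterozygous and WT samples on day 4, 0 of the 9 genes passed, and limma passed 0% of all genes tested. With an intensity trend in the prior 3.52% of all genes passed, and still 0 of the 9. All 9 changes were negative, as were 62.7% of those of all genes, and the median of the 9 was -2.08, against -0.20 over all genes. At an unadjusted p under 0.05, 5 of 9 were lower (C1qa, C1qb, Tyrobp, Fcer1g and Ptprc), against 8.66% of all genes. Without array 277 it was 3 of 9 (C1qa, Tyrobp and Ptprc), against 5.93%. Without array 284 it was 8 of 9, all but Fcer1g, against 20.2%. Both heterozygous arrays were below both WT day 4 arrays for 7 of 9, against 30.6% of all genes, with Adgre1 and Mrc1 the exceptions. The median of the 9 was -1.34 after quantile normalization and -1.28 with a pseudocount of 32.

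The heterozygous samples were also set against WT day 1. None of the 9 genes passed in limma, against 9.55% of all genes tested, and the median change was -0.29, against 0.01 over all genes. At an unadjusted p under 0.05, 2 of 9 were lower (Fcer1g and Ptprc), against 12.1% of all genes. Both heterozygous arrays were below both day 1 arrays for 4 of 9 (C1qa, C1qb, Fcer1g and Ptprc), against 30.1%, and above them for 1 of 9 (Adgre1), against 32.2%. The 3 comparisons share arrays, so their values are side by side and not independent.

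**Figure D2:**
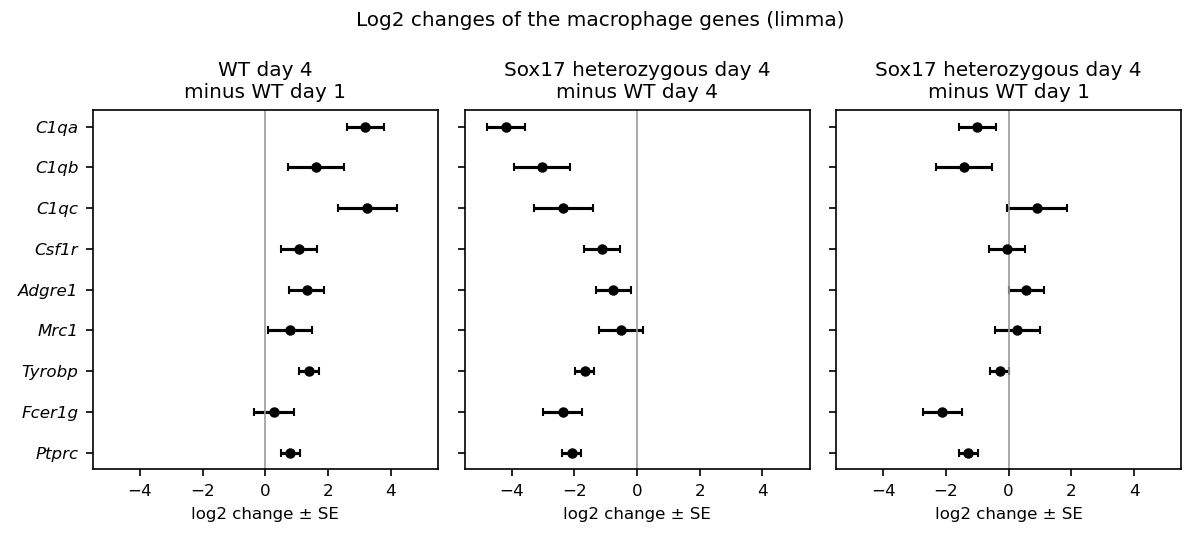
Log2 change of each macrophage gene in the 3 comparisons, 1 panel per comparison, with limma's standard error as bars. All 9 points lie above 0 in the first panel and below 0 in the second, and C1qa, at 3.18 in the first, is the only one past an adjusted p of 0.05.

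Each WT day 4 array was then compared singly with the means of the other groups. Array 277 exceeded all 4 arrays of the other groups for 9 of 9 genes, against 47.5% of all genes. Array 284 did so for 6 of 9, C1qa, C1qb, C1qc, Tyrobp, Fcer1g and Ptprc, against 25.5% of all genes. The share over all genes was thus larger for array 277 than for array 284.

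Against the day 1 mean, the median difference of the 9 genes was 1.77 on array 277 (0.53 over all genes) and 0.89 on array 284 (0.05 over all genes). C1qa stood 3.69 above day 1 on array 277 and 2.68 above it on array 284. C1qc stood 4.34 and 2.16 above it, C1qb 2.27 and 0.96, and Tyrobp 1.55 and 1.21. Mrc1 was 1.77 above on array 277 and at -0.21 on array 284, so that it was on opposite sides of day 1. Csf1r was 1.76 and 0.36 above, and Adgre1 2.04 and 0.60.

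Against the heterozygous mean, the median difference was 1.99 on array 277 (0.39 over all genes) and 1.51 on array 284 (0.02 over all genes). On array 284, C1qa was 3.67 above the heterozygous mean, Fcer1g 2.44, C1qb 2.38, Ptprc 2.18, Tyrobp 1.51 and C1qc 1.26. The receptor genes were near it, with Csf1r at 0.42, Adgre1 at 0.03 and Mrc1 at -0.48. On array 277 the receptors were also among the smallest, from 1.47 for Adgre1 to 1.82 for Csf1r, but none was near 0. After quantile normalization, which gives the arrays equal distributions, the medians on array 284 were 1.00 above day 1 and 1.46 above the heterozygous mean, and on array 277 they were 1.25 and 1.21. There Fcer1g and Ptprc turned to -1.07 and -0.55 against day 1 on array 277.

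**Figure D3:**
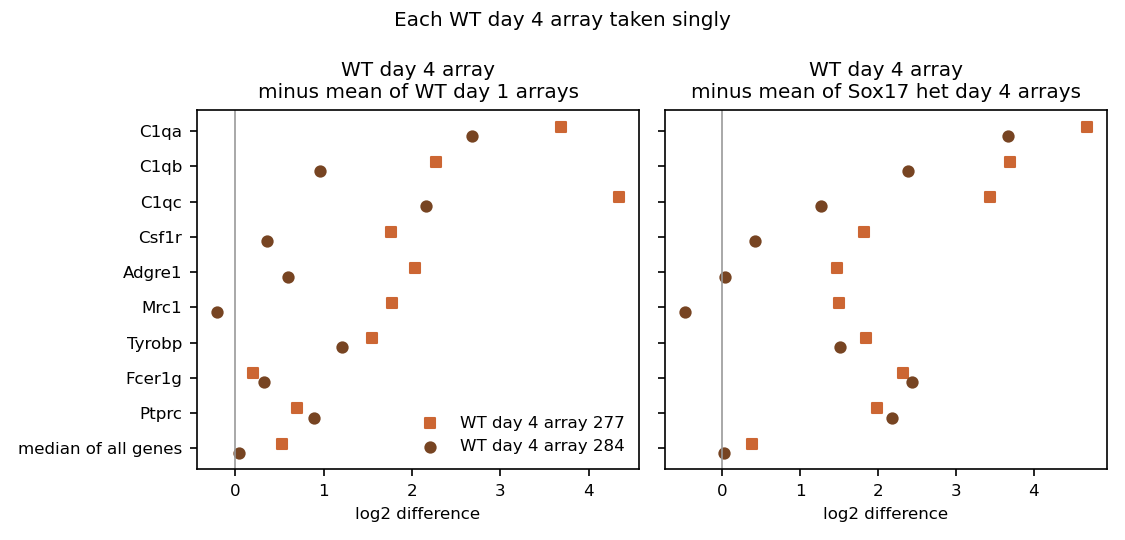
Log2 difference of each WT day 4 array from the mean of the day 1 arrays and from the mean of the heterozygous arrays, for each macrophage gene and the median of all genes. Squares are array 277 and circles array 284. On array 284, Mrc1 lies at -0.21 and -0.48, and C1qa at 2.68 and 3.67.

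Percentiles within an array do not depend on how the arrays were scaled. C1qa stood at percentiles 12.1 and 18.1 on day 1, 43.1 and 43.6 on WT day 4, and 13.3 and 6.50 in the heterozygous samples. The WT day 4 arrays, which differed 2-fold in signal, were nearly equal on this scale. Tyrobp stood at 40.3 and 43.5, then 50.6 and 52.7, and 42.2 and 37.4, again with WT day 4 highest. Fcer1g and Ptprc differed from these, since on array 277 they stood at 27.0 and 30.3, below their day 1 percentiles of 39.1 and 40.8 for Fcer1g and 37.8 and 36.6 for Ptprc, while on array 284 they stood at 44.4 and 47.0. On the percentile scale both WT day 4 arrays were above the other 4 for 5 of 9 genes, against 15.1% of all genes, and on the signal scale for 6 of 9, against 18%.

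**Figure D4:**
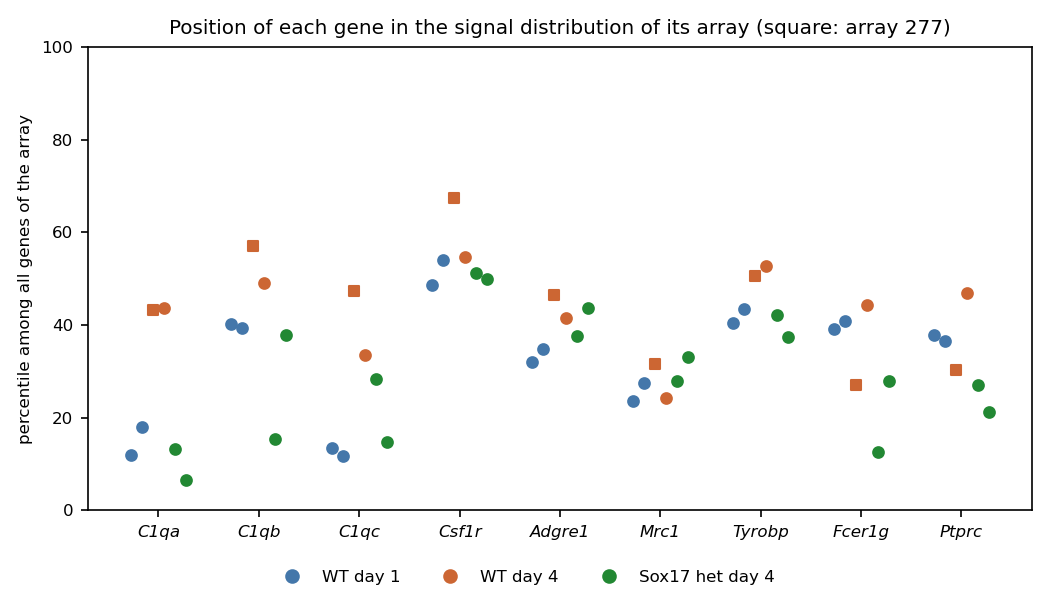
Percentile of each macrophage gene among all genes of an array, for the 6 arrays. C1qa stands at 43.1 and 43.6 on the WT day 4 arrays and at 18.1 or below on the other 4, while Ptprc stands at 30.3 on array 277 and 47.0 on array 284.

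The WT day 4 pair was the least alike for these genes. The median absolute log2 difference between its arrays was 1.31 over the 9 genes, against 0.59 over all genes. It was 0.33 in the day 1 pair (0.32 over all genes) and 0.66 in the heterozygous pair (0.28 over all genes). The highest of the 6 signals was on array 277 for 7 of 9 genes, against 41.5% of all genes, and on array 284 for Fcer1g and Ptprc, against 13.5%. Added up, the 9 signals came to 507 and 642 on day 1, 2069 and 995 on WT day 4, and 460 and 458 in the heterozygous samples.

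The 9 genes followed a common profile over the 6 arrays to different degrees. As a description over 6 arrays that share the brightness of array 277, Pearson's r of a gene with the mean of the other 8 was highest for C1qa (0.944) and Tyrobp (0.933) and lowest for Fcer1g (0.548) and Mrc1 (0.622). Genes outside the list with the most similar profile were sought among 5576 genes with a mean signal of at least 100 and a range of at least 1 on the log2 scale. The 10 most alike were Arhgef11 (r = 0.996 over 6 arrays), Ankrd54, Slc25a22, Smg9, Setd1a, Leng8, Gtf2b, Tmub1, Mdk and Ube2d-ps (r = 0.966), and 91 genes had an r above 0.9. None of the 10 belongs to a marker list used here, but the signal minimum kept dim marker genes such as Coro1a and Cd48 out of the search. Arhgef11 had 671 and 677 on day 1, 1218 and 901 on WT day 4, and 545 and 570 in the heterozygous samples.

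Other genes of macrophages and monocytes did not move as a block with the 9. Of 24 listed, 23 were measured, and on day 4 in WT 2 rose, 2 fell and 19 did not pass. Their median change was 0.09 on day 4, and -0.26 in heterozygous against WT samples, where 0 of 23 passed (at an unadjusted p under 0.05, Lyz1 was higher and Ms4a7 lower). Cd68, which encodes a lysosomal membrane glycoprotein used as a macrophage marker, had 6401 and 5746 on day 1, 224 and 157 on WT day 4, and 308 and 167 in the heterozygous samples, and fell by 5.01 (± 0.39, limma adjusted p = 0.00822). Itgam, which encodes CD11b, had 2373 and 2012, then 35.9 and 10.8, and 179 and 49.9, and fell by 6.71 (± 0.85, limma adjusted p = 0.0175). Both were highest on day 1, where the C1q genes were low.

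The lysozyme genes rose. Lyz2, the lysozyme of macrophages and neutrophils, had 177 and 236.5 on day 1, 1223 and 980 on WT day 4, and 956 and 942 in the heterozygous samples, a day 4 change of 2.42 ± 0.25 (limma adjusted p = 0.0123). Lyz1, a near-identical copy whose probe set may share signal with Lyz2, had 154 and 303, then 1462 and 1375, and 4303 and 5440, a day 4 change of 2.71 ± 0.39 (limma adjusted p = 0.0229). In the heterozygous samples neither lysozyme gene was near its day 1 signals, unlike C1qa. Cd14, which encodes a co-receptor for lipopolysaccharide and was the brightest gene of the list, ran from 12139 to 15709 with a day 4 change of -0.05 ± 0.19 (limma adjusted p = 0.894). Ms4a7, a macrophage membrane protein gene, had 68.7 and 59.2, then 167 and 129, and 70.0 and 15.9, with a heterozygous change of -2.09 ± 0.73 (limma adjusted p = 0.361).

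Of 12 other pan-leukocyte genes, all measured, 1 fell on day 4 in WT, 11 did not pass, and the median change was 0.98. At an unadjusted p under 0.05 the counts were 4 higher (Cytip, Cd52, Cd37 and Ptpn6) and 1 lower, with Cytip at 5.62 ± 1.20 and Cd52 at 1.73 ± 0.36 (limma adjusted p = 0.0534 and 0.0512). The one that fell was Arhgdib (-1.55 ± 0.29, limma adjusted p = 0.0400). In heterozygous against WT samples 0 of 12 passed, with Arhgdib higher and Coro1a and Cd53 lower at an unadjusted p under 0.05 and a median of -0.77. The summed signal of the list ran from 2142 to 2441 on day 1, from 2624 to 3887 on WT day 4 and from 3834 to 5989 in the heterozygous samples. Bright genes carry that sum, with Cytip at 1894 and Laptm5 at 1740 on array 253, and it does not follow the list's negative median in the heterozygous samples. Coro1a, an actin regulator of leukocytes, had 15.0 and 29.9 on day 1, 23.2 and 30.9 on WT day 4, and 0.77 and 3.71 in the heterozygous samples (-3.27 ± 0.62, limma adjusted p = 0.210). Cytip, a cytohesin-binding protein gene of the same list, went the other way in order, with 3.81 and 48.9, then 997 and 583, and 1894 and 1200, and did not pass (limma adjusted p = 0.723 in heterozygous against WT).

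Markers of other leukocytes moved with array 277. The summed signal of 8 T cell genes was 370 and 356 on day 1, 907 on array 277 but 142 on array 284, and 227 and 190 in the heterozygous samples. The sum of 6 B and plasma cell genes was 356 and 332, then 973 and 191, and 197 and 206. The sum of 9 mast cell and eosinophil genes was 171 and 167, then 797 and 208, and 197 and 274. In these 3 lists array 277 was high and array 284 was not, and 0 of 8, 0 of 6 and 0 of 9 genes passed in limma on day 4 (at an unadjusted p under 0.05, 0, 0 and 2 genes were higher and none was lower). In heterozygous against WT day 4 samples none of these passed either, with 0, 0 and 2 lower at an unadjusted p under 0.05. No gene of any list was at a signal of 0, and the part of array 277's dim range in the results for the 9 genes was not tested.

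Of 7 NK cell genes, Klrk1 rose on day 4 (2.80 ± 0.56, limma adjusted p = 0.0468), and the list's sum was 237 and 400 on day 1, 840 and 365 on WT day 4, and 291 and 200 in the heterozygous samples. Of 8 dendritic cell genes, Zbtb46, a transcription factor of conventional dendritic cells and endothelium, rose by 4.15 ± 0.37 (limma adjusted p = 0.00947), from 30.0 and 21.4 to 427 and 508, and had 75.7 and 133 in the heterozygous samples. The sum of that list was 440 and 558, then 1375 and 944, and 422 and 609. Of 9 neutrophil genes S100a9 fell by 2.16 (± 0.37, limma adjusted p = 0.0324). That list's sum was 317 and 220, then 654 and 266, and 144 and 125. Of 9 endothelium genes Vwf rose (4.66 ± 0.59, limma adjusted p = 0.0174), and the sum was 382 and 427, then 932 and 485, and 365 and 453. No gene of these 4 lists passed in heterozygous against WT samples in limma, where at an unadjusted p under 0.05 there were 2, 1, 3 and 0 lower and none higher.

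Stroma and blood markers were also set beside the macrophage genes. The summed signal of 10 stroma genes was 3611 and 9310 on day 1, 1823 and 2891 on WT day 4, and 470 and 855 in the heterozygous samples. Both heterozygous arrays were thus lowest for stroma as well, but the order of the 2 WT groups was the reverse of that for C1qa. The sum of 7 smooth muscle genes was 903 and 895, then 418 and 311, and 193 and 177, in the same order as stroma. The sum of 3 erythrocyte genes was 19.5 and 33.4, then 254 and 102, and 31.7 and 30.0, with both WT day 4 arrays highest. Of these 3 lists only Acta2, smooth muscle actin, passed, falling on day 4 (-1.60 ± 0.23, limma adjusted p = 0.0230), and none passed in heterozygous against WT day 4 samples (at an unadjusted p under 0.05, 3, 1 and 1 lower and 0 higher). Of the 8 epithelial genes, whose sum ran from 132673 to 148364, Cldn3 rose (1.39 ± 0.21, limma adjusted p = 0.0254) and Krt7 fell by 2.33 (± 0.20, limma adjusted p = 0.00911) on day 4. How much stroma or blood in the preparations contributed to the values of the 9 genes was not tested.

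**Figure D5:**
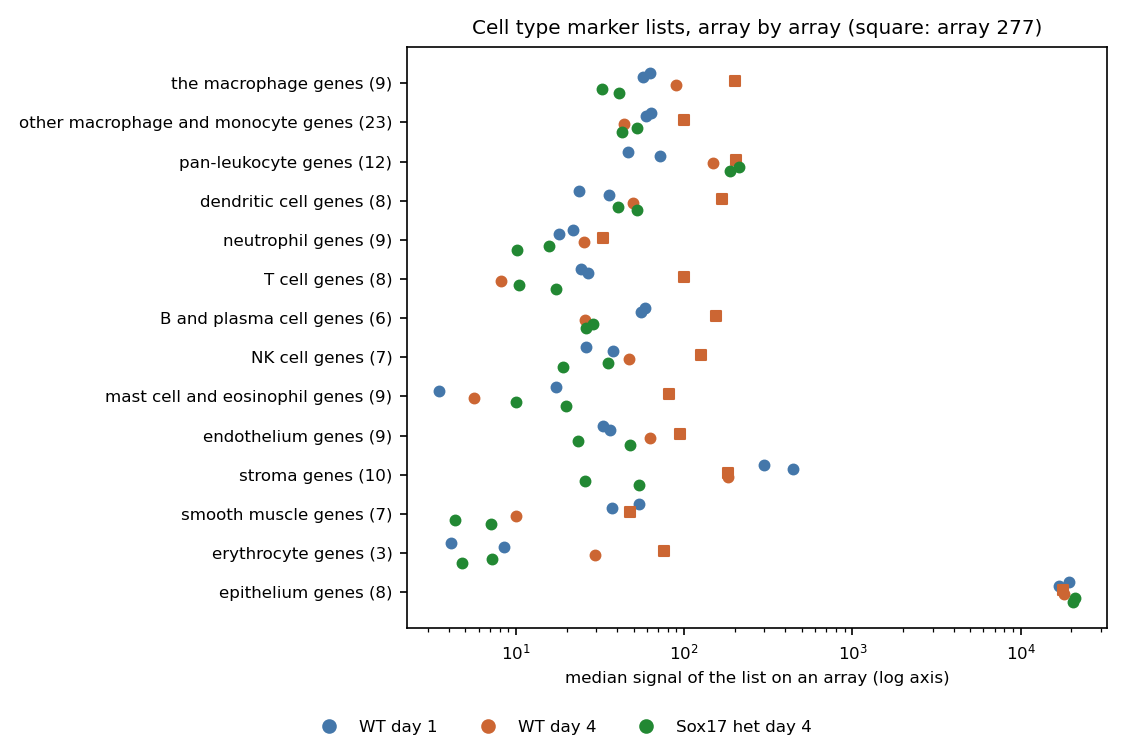
Median signal of each marker list on each array, on a log axis, with the number of genes measured in brackets. Squares are array 277. For T cell, B cell and mast cell lists array 277 alone is high. Array 284 is also above the 4 arrays of the other groups for the macrophage genes, at 89.9 against 32.4 to 62.9, and for the NK cell, neutrophil, endothelium and erythrocyte lists.

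The genes that work with the 9 were followed as well. In the complement pathway around C1q, 14 of 18 listed genes were measured, and on day 4 in WT 1 rose and 4 fell. The inhibitor gene Cfi, which encodes factor I, had 19945 and 19931 on day 1 and 1032 and 736 on WT day 4, and fell by 4.51 (± 0.24, limma adjusted p = 0.00620). Cfb, the factor B of the alternative pathway, had 20998 and 22645, then 1251 and 490, and fell by 4.80 (± 0.51, limma adjusted p = 0.0126), and the others that fell were the inhibitor genes Cd55 and Cr1l. Cd59a, which encodes a membrane inhibitor of the terminal complex, rose by 2.31 ± 0.21 (limma adjusted p = 0.00964). The C1q genes and the bright complement genes Cfi and Cfb were therefore on opposite sides of the day comparison. In heterozygous against WT samples 0 of 14 passed (at an unadjusted p under 0.05, C1qbp and Cfb were higher and Cfp and Serping1 lower). Cfp, the properdin gene, was at -1.16 ± 0.25 (limma adjusted p = 0.235).

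On the CSF1 receptor axis 11 of 12 listed genes were measured. Csf3, a granulocyte growth factor gene and the brightest of the list, on day 4 fell by 1.88 (± 0.36, limma adjusted p = 0.0422), and the other 10 did not pass. Csf1, which encodes the main ligand of CSF1R, had 687 and 811 on day 1, 172 and 45.1 on WT day 4, and 85.5 and 57.2 in the heterozygous samples (-3.07 ± 0.70 on day 4, limma adjusted p = 0.0619). Ligand and receptor signals thus had different orders, since Csf1 was highest on day 1. In heterozygous against WT samples 0 of 11 passed in limma (0 higher and 2 lower at an unadjusted p under 0.05), with Cebpa, a transcription factor of myeloid and other cells, at -2.41 ± 0.26 (adjusted p = 0.151) and Irf8 at -1.47 ± 0.43 (adjusted p = 0.300).

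Of 19 receptors and kinases that work with Tyrobp and Fcer1g, 17 were measured. Btk, a kinase of B cells and myeloid cells, on day 4 fell by 2.11 (± 0.39, limma adjusted p = 0.0381), and 16 did not pass. The Fc receptor genes Fcgr3 and Fcgr4 had fitted values of -2.11 ± 0.96 and -1.45 ± 0.52 in heterozygous against WT day 4 samples. Neither passed (limma adjusted p = 0.424 and 0.366). Fcgr4 had 89.5 and 86.6 on day 1, 301 and 129 on WT day 4, and 94.4 and 53.9 in the heterozygous samples, with both WT day 4 arrays highest, as for Tyrobp. Another Fc receptor gene of the list, Fcgr1, was at -0.26 ± 0.70 in heterozygous against WT day 4 samples (limma adjusted p = 0.874). In that comparison 0 of 17 passed (0 higher and 1 lower at an unadjusted p under 0.05). The median change of the 17 was -0.40 there and -0.06 on day 4 in WT. Both WT day 4 arrays were the highest for 2 of 17, against 18% of all genes.

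Of 6 regulators and ligands of CD45, 4 were measured and none passed in limma in either comparison. At an unadjusted p under 0.05 the counts were 0 on day 4 and 1 lower in heterozygous samples. That gene was Ptprcap, which encodes a protein bound to CD45, with 101 and 51.3 on day 1, 164 and 57.3 on WT day 4, and 17.2 and 13.5 in the heterozygous samples (-2.59 ± 0.64, limma adjusted p = 0.259). As for Ptprc, both heterozygous arrays were the lowest of the 6.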

How the data were processed

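RNA of separated uterine epithelium was hybridised to 1-colour Affymetrix arrays, 1 per sample, after labelling from 100 ng, per the labels' protocols. The values the authors deposited are linear signals (intensity) per probe set. The submitters' processing notes name Affymetrix Expression Console, RMA and Transcriptome Analysis Console, and give neither version nor role. RMA gives log2 values with equal quantiles, which these are not, so which summary made them is unknown here. No 2 arrays were identical, and the number of arrays limits the precision.

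Of 45101 probe sets, 34945 had 1 gene symbol in the platform's annotation and were used. The rest were 932 with several symbols, 9160 with none listed and 64 controls. Gene IDs of 34741 were found in RefSeq, which changed 0 symbols. Each of 18193 genes was represented by its probe set of highest mean log2 value, and every probe set was also tested on its own. Values were taken as log2(signal + 1), which understates changes of dim genes, with no further normalization and no filter, so all 9 genes entered every main test. The tests used limma 3.58.1 under R 4.3.3, with the 6 arrays in 1 model of 3 group means and 3 residual degrees of freedom. Adjusted p-values are Benjamini-Hochberg over all genes (or all probe sets), with a threshold of 0.05, and errors after ± are limma's standard errors. No exact permutation test was run, since with 2 arrays a side its smallest p is 0.333. The fit was tested first on simulated data in which 200 of 18193 genes were changed. At an adjusted p under 0.05 it found 0% of changes of 2 on the log2 scale in each of the 3 comparisons. Of changes of 4 it found 45.5% to 65%. In the real day comparison 13.3% of all genes passed, and changes smaller than 2 were among them, such as Cldn3 at 1.39. The simulated shares are therefore not the sensitivity of the real comparisons. With 2 arrays per group, a gene that did not pass is not shown to be unchanged.

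Genes outside the 9 were named by a rule: from each list at most 4 genes of smallest p in the comparison described, plus the brightest. A few others, such as Fcgr1, Cd37 and Laptm5, were named to complete a comparison, a count or a sum. For profile likeness, the 10 genes of highest Pearson r with the mean log2 value of the 9 were named, predicted names left out. The 9 genes and the lists were chosen with earlier results of these data known. Listed genes without a probe set of a single symbol were not used here. Alternatives were quantile normalization, median centring, a minimum mean signal of 100, a pseudocount of 32, an intensity trend, the mean over a gene's probe sets, fits on 4 arrays and leaving out each array.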

Additional observations from a re-analysis of the deposited data

How the results depend on the processing

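No paired analysis was possible because the groups share no sample numbers. With both arrays of each compared group kept, limma called 0 of the 9 genes in heterozygous against WT day 4 samples under every alternative. At an unadjusted p under 0.05 in either direction, quantile normalization gave the fewest, 3 of 9, beside 2517 of 18193 genes. Median centring gave 6 of 9 beside 2031 of 18193, and an intensity trend 6 of 9 beside 3201 of 18193. The signal minimum gave 2 of the 3 it left (C1qb and Tyrobp), beside 2248 of the genes it left, whose number is not given here. Both had signals under 100 on all 4 arrays outside WT day 4 and reached the minimum only through that group. This count is therefore no support for a difference. The following values moved. The number of all genes called on day 4 in WT, 2421, was 1575 after median centring (710 higher, against 1379 before), 4245 with a minimum mean signal of 100, 4506 with an intensity trend, 616 with the 4 WT arrays alone and 0 to 2459 when an array was left out. The 4245 are out of the genes with a mean signal of at least 100, not of 18193. Of the 9 genes, 2 were called with a pseudocount of 32 (C1qa and Tyrobp), where 3419 of 18193 genes were called, and 0 with the 4 WT arrays alone. Of the 14 probe sets, 3 were called in the main fit, 2 after median centring, 2 with a trend and 4 with the pseudocount. With the signal minimum, which leaves 4 of the 14, 1 was called, and with the 4 WT arrays alone 0. The share of all probe sets called was computed only for the main fit, at 9.19%. The probe set counts of the other settings can therefore not be read as results about the 9 genes. Quantile normalization without array 277 or 284, chosen after seeing the data, gave 0 and 0 of the 9 genes and 0 and 1 of the probe sets.

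In heterozygous against WT day 4 samples, 218 genes were called with the signal minimum, 4 with a pseudocount of 32 and 640 with an intensity trend. The 218, and the 3618 given below for WT day 1, are out of the genes with a mean signal of at least 100, not of all genes. The median of the 9, -2.08, was -1.34 after quantile normalization, -1.28 with a pseudocount of 32, -1.58 and -1.20 after quantile normalization without array 277 and without array 284, and -2.08 to -1.51 when an array was left out. Against WT day 1, the number of all genes called, 1737, was 3618, 2753 and 3880 with the signal minimum, the pseudocount and the trend, and 0 to 2077 when an array was left out, and the median of the 9 ran from -0.46 to 0.0093, turned without array 281.

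Other changes of sign were in values that had not passed. On day 4, Fcer1g was -0.31 after quantile normalization and -1.07 with array 284 left out as well, where Ptprc was -0.55. When an array was left out, Mrc1 ran from -0.21 to 1.77 and Csf1r 1419873_s_at from -0.26 to 1.10, negative without array 277 (-0.12 and -0.063 with quantile normalization as well). In heterozygous against WT day 4 samples Mrc1 was 0.22 after quantile normalization and 0.55 without array 277 as well, and ran from -1.50 to 0.48 when an array was left out. Against WT day 1, C1qb was 0.60 as the mean over its probe sets. There, leaving out an array gave -0.44 to 0.33 for Csf1r, -0.29 to 0.54 for Csf1r 1423593_a_at, -0.59 to 0.0093 for Tyrobp and -0.62 to 2.38 for Ptprc 1440165_at. Where an array was left out, the lone array of its group was taken to vary like the other groups. The signal minimum left 3 of the 9 genes (C1qb, Csf1r and Tyrobp). The cause of these shifts was not tested, and with dim signals and no detection calls the values near background limit every statement on these genes.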
